A study of Rattus norvegicus with 11 samples.

Results

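The extracellular signal-regulated kinase (ERK) cascade was followed through 7 genes in medial prefrontal cortex, in rats with a history of heroin self-administration. The genes were Hras and Nras, Braf, Map2k1 and Map2k2, Mapk3, and Elk1. They were read by every non-control probe of the array that carried 1 of these names, with or without the suffix for a predicted gene, which gave 9 of 41012 probes, for 7 of the 35561 gene names and accessions that the array lists. Of these 9 probes, 8 gave a signal well above background on every array and were tested. The exception was the dimmer of the Elk1 probes.

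Ras proteins are small GTPases at the inner face of the cell membrane that are switched on when growth factor receptors, or calcium entry in neurons, bring exchange factors to them. Active Ras recruits Raf kinases such as Braf, which phosphorylate the kinases MEK1 and MEK2 (Map2k1 and Map2k2), which in turn phosphorylate the ERKs, among them ERK1 (Mapk3). ERK enters the nucleus and phosphorylates factors such as Elk1, which sits with serum response factor on the promoters of immediate early genes, and in the cortex this route is known for its part in synaptic plasticity and memory. The cascade is switched by phosphorylation, and an array reads only the RNA of its components.

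The arrays held 1 rat each, 6 that self-administered heroin and 5 that received yoked infusions of saline, that is, an infusion whenever a matched animal earned heroin. All were males of 4 months, had 14 days of abstinence and went through an extinction session without drug just before the tissue was taken. The strain was not given in the sources used here. The methods give 6 arrays in each group, and 5 of saline rats were analysed here. Saline rats never received heroin, so a difference between the groups joins the drug itself, its withdrawal, and the control that the heroin rats had over infusions. It also joins behaviour in the extinction session, in which the study reported more goal-directed responses of heroin rats than of saline rats. The tissue was a block of cortex with all its cell types, in which fewer cells of a type and less RNA per cell cannot be told apart. P-values set the difference between the groups against the spread between arrays of a group. With 1 rat on each array, that spread joins differences between rats with those from labelling, hybridisation and scanning.

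Signals are given in array medians, where 1 is the middle signal of all non-control probes on the same array, and log2 changes are heroin minus saline. With this scaling the median of the 25555 probes tested was itself 0.18 higher on the log2 scale in heroin rats, and 78.7% of them were higher. Under quantile normalization, which gives all arrays the same distribution, the median was 0.01 and 53.2% were higher, so each change is given under both. A probe counted as changed where the p of limma was under 0.02 and the change was at least 1.4-fold, the thresholds of the study. The array medians before scaling lay between 42.7 and 83.2 units of signal, and heroin rat 6 had the lowest. It lay far below the other heroin rats for 3.45% of 25332 probes and far above them for 6.06%, so values are also given without it. Every heroin array lay at place 4 of its slide and every saline array at place 3, so place and group cannot be told apart.

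The markers of neurons Snap25, Camk2a and Slc17a7 were well above background on all arrays. The 6 neuronal markers tested had a median log2 change of 0.32 (quantile 0.12), the 5 of oligodendrocytes -0.01 (-0.25), the 4 of astrocytes 0.23 (-0.02), the 3 of microglia 0.24 (0.01), the 3 of endothelium 0.10 (-0.15), the 2 of blood 0.11 (-0.10) and the 3 of striatum -0.21 (-0.34). None of these 26 markers passed the thresholds, and Drd2 of striatum and Itgam of microglia were not well above background on every array. With scaling by the array median, the medians of neurons, astrocytes and microglia lay above that of all probes, as that of the ERK cascade did. Among the neuronal markers, Syt1 (0.04, quantile -0.20) and Nefl (0.05, quantile -0.19) lay below the median of all probes. The other neuronal markers lay between 0.31 and 0.49. The summed signal of the 6 neuronal markers was between 289 and 472 array medians in heroin rats and between 254 and 387 in saline rats, ranges that overlapped. Its part in the changes of the cascade was not tested.

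Each probe is a single strand of 60 bases, and its position is given in rat build rn3 as the array files list it. Exons and untranslated regions at these sites were not analysed here. The sequences of the probes for Mapk3, Map2k2, Braf and Elk1 are shown because the kinase and factor results rest on them, 5′ to 3′ as in the array files, and of the dimmer Elk1 probe the first 30 bases are shown because it runs the other way from its partner. No letters are capitalised, since no motif was searched.
Mapk3 probe: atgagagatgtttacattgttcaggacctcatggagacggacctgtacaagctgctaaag
Map2k2 probe: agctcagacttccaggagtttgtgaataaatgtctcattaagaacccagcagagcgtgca
Braf probe: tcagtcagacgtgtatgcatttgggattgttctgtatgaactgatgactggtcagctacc
Elk1 brighter probe: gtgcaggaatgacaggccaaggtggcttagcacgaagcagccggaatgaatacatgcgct
Elk1 dimmer probe, start: gagaaataaagaaagaaaggttcttctcaa

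The Mapk3 probe spans chr1:186086211-186088392 on the plus strand and that for Map2k2 spans chr7:10076113-10076775 on the minus strand. These spans of 2182 and 663 bases are longer than the probe, so both sequences are in pieces in the genome. The Braf probe lies at chr4:67405139-67405198, that for Map2k1 at chr8:68398841-68398900, and both are on the minus strand. The Nras probe lies at chr2:198264903-198264962 on the plus strand. The 2 Hras probes lie at chr1:201537007-201537066 (the brighter) and chr1:201537274-201537333 (the dimmer), both on the minus strand with 207 bases between them. The brighter Elk1 probe lies at chrX:12605361-12605420 on the minus strand. The dimmer lies 2269 bases away at chrX:12603032-12603091 on the plus strand.

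Of the 8 probes tested, 7 were higher in heroin rats, beside 78.7% of all probes, and that for Elk1 was lower. None passed the thresholds of the study, which 2.72% of all probes tested did, and the methods' t-test also called 0 of the 8. The probes for Map2k1 and the brighter one for Hras had an unadjusted limma p under 0.05, which 18.5% of all probes had. By the methods' t-test 3 of the 8 did, both Hras probes and that for Map2k2, against 16.1% of all probes. Map2k1 was not among these 3, with a p of 0.0501 by that test. Under quantile normalization none of the 8 had a limma p under 0.05, against 7.71% of all probes. No probe had groups free of overlap, which 1.57% of all probes had. Benjamini-Hochberg adjusted p-values over all 25555 probes were between 0.263 and 0.548 for these 8, and the smallest for any probe was 0.263. The median log2 change of the 8 was 0.29, beside 0.18 for all probes, and under quantile normalization it was 0.07, beside 0.01.

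**Figure D1:**
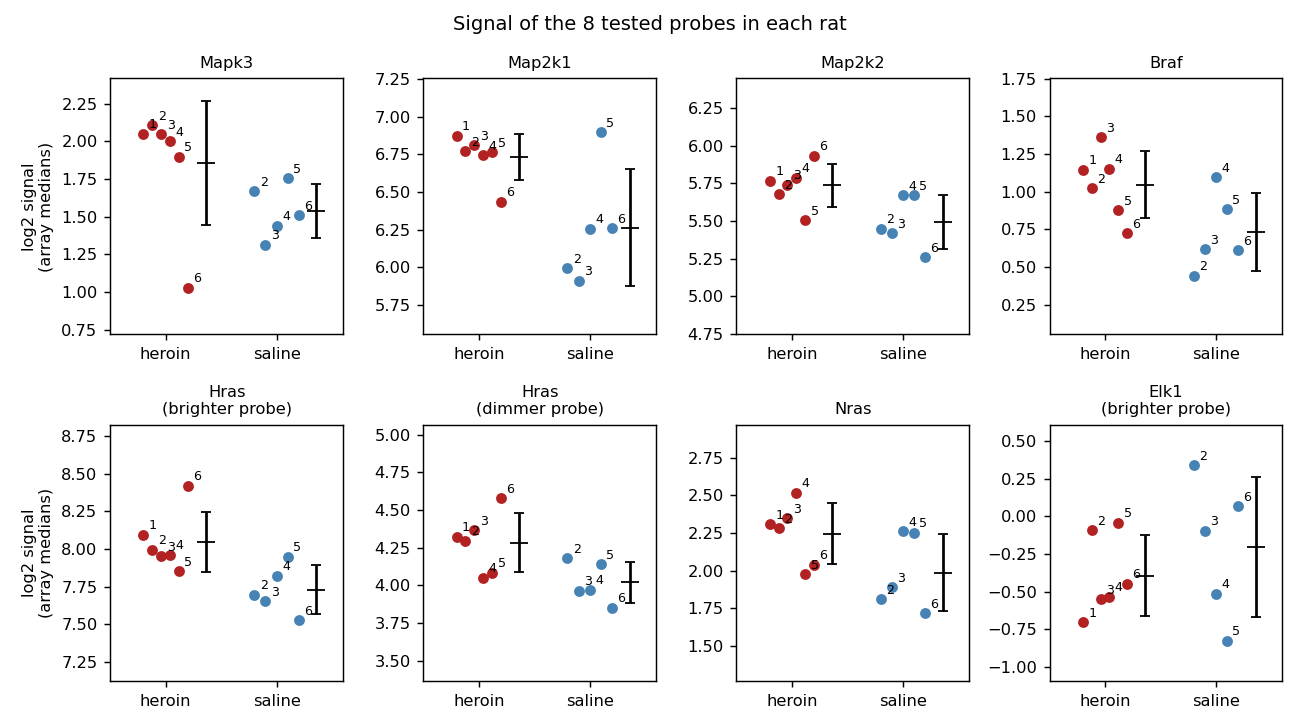
Log2 signal in array medians (vertical axes, each spanning the same number of log2 units) of the 8 probes tested, in 6 heroin rats (red) and 5 saline rats (blue). Points are rats with their replicate number, and the black mark and bar are the group's mean ± SD. Heroin rat 6 lies at 1.03 for Mapk3, below every other rat, and saline rat 5 at 6.90 for Map2k1, above every other rat.

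Ras stands at the head of the cascade. Hras, the form of Ras known for its abundance in brain, was read at 2 sites. On its brighter probe heroin rats ranged from 231 to 343 array medians with a median of 252, and saline rats 2 to 6 had 207, 201, 227, 247 and 184. Heroin rat 6 was the highest of all rats, and 5 of the 6 heroin rats lay above the highest saline rat. The means were 267 ± 39.8 (SD, n = 6) and 213 ± 24.2 (SD, n = 5).

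The log2 change of this probe was 0.32 ± 0.13 (SE), with an exact permutation p of 0.0130 and a limma p of 0.0306, and its fold of 1.25 was under the threshold. Without heroin rat 6 the change was 0.24 with a limma p of 0.0575. Under quantile normalization it was 0.09 with an interval (95%, limma) from -0.11 to 0.28 and a limma p of 0.357.

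On the dimmer Hras probe heroin rats ranged from 16.6 to 23.9 array medians with a median of 19.8, and saline rats 2 to 6 had 18.1, 15.6, 15.7, 17.7 and 14.4. The groups overlapped, heroin rat 6 was again the highest, and 4 of 6 heroin rats lay above every saline rat. The log2 change was 0.26 ± 0.13 (SE), limma p 0.0604 and exact permutation p 0.0325. Both Hras probes thus gave changes of like size with this scaling, 0.32 and 0.26. Without heroin rat 6 the dimmer one had 0.20 (limma p 0.113). It had 0.01 under quantile normalization and -0.04 when heroin rat 6 was also left out.

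Nras, the Ras protein of the same family first found in neuroblastoma, had 3.94 to 5.72 array medians in heroin rats with a median of 4.91, while saline rats 2 to 6 had 3.50, 3.70, 4.80, 4.77 and 3.29. Saline rats 4 and 5 lay among the heroin rats, and the other 3 lay below all of them. The means were 4.78 ± 0.66 (SD, n = 6) and 4.01 ± 0.72 (SD, n = 5), and the log2 change of 0.26 ± 0.15 (SE) did not pass (limma p 0.0979, exact permutation p 0.0996). Without heroin rat 6 it was 0.30 (limma p 0.0604). Under quantile normalization it was 0.05 (limma p 0.609).

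Braf, the Raf kinase with the strongest activity toward MEK and a high level in neurons, had 1.65 to 2.57 array medians in heroin rats with a median of 2.12. Saline rats 2 to 6 had 1.36, 1.54, 2.14, 1.85 and 1.53. The groups overlapped: 3 of 6 heroin rats lay above every saline rat, and heroin rat 6 was the lowest of its group. The means were 2.09 ± 0.32 (SD, n = 6) and 1.68 ± 0.31 (SD, n = 5).

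The log2 change of Braf was 0.32 ± 0.15 (SE), with a limma p of 0.0537 and an exact permutation p of 0.0541. It was 0.38 without heroin rat 6 (limma p 0.020). Under quantile normalization it was 0.22 (limma p 0.0963), so that Braf and Map2k1 had the highest changes of the 8 probes under that scaling.

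Map2k1 encodes MEK1, a kinase that phosphorylates ERK. It had 86.6 to 117 array medians in heroin rats with a median of 109, while saline rats 2 to 6 had 63.8, 60.2, 76.4, 119 and 76.6. Saline rat 5 was the highest of all 11 rats, and the other 4 saline rats lay below every heroin rat. The means were 107 ± 10.6 (SD, n = 6) and 79.2 ± 23.5 (SD, n = 5).

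The log2 change of Map2k1, 0.47 ± 0.17 (SE) with an interval from 0.12 to 0.82, was the highest of the 8 probes and above 96.6% of all probes tested. Its limma p was 0.0128 (exact permutation p 0.0281), and its fold of 1.39 fell just short of 1.4. It passed both thresholds without heroin rat 6 (0.53, limma p 0.00629) and without saline rat 5 (0.63, limma p 0.000278). Without those rats 3.08% and 9.2% of all probes passed, and with array weights, where Map2k1 and Mapk3 both passed, 9.74% did. With any other single rat left out, Map2k1 passed neither threshold, with changes of 0.38 to 0.47 and limma p from 0.0217 to 0.0437. Under quantile normalization the change was 0.23 (limma p 0.143).

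Map2k2 encodes MEK2, the paralog with the same targets. It had 45.4 to 61.1 array medians in heroin rats with a median of 54.0, and saline rats 2 to 6 had 43.6, 42.7, 51.0, 50.9 and 38.3. All heroin rats but rat 5 lay above the highest saline rat. The means were 53.5 ± 5.17 (SD, n = 6) and 45.3 ± 5.53 (SD, n = 5).

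The log2 change of Map2k2 was 0.24 ± 0.12 (SE), limma p 0.0715 and exact permutation p 0.0390. It was 0.20 without heroin rat 6 (limma p 0.119). Under quantile normalization it was -0.01, with an interval from -0.19 to 0.17.

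Mapk3 encodes ERK1, and its probe is printed 10 times on each array. All 10 spots were usable on all arrays, and their SD within an array was between 0.03 and 0.14 on the log2 scale. Heroin rats 1 to 6 had 4.14, 4.31, 4.13, 4.00, 3.73 and 2.04 array medians, and saline rats 2 to 6 had 3.18, 2.49, 2.71, 3.38 and 2.85. Of the 6 heroin rats, 5 lay above every saline rat, and heroin rat 6 lay below every saline rat.

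The means of Mapk3 were 3.72 ± 0.85 (SD, n = 6) and 2.92 ± 0.36 (SD, n = 5), and the log2 change was 0.32 ± 0.18 (SE) with an interval from -0.08 to 0.71 (limma p 0.107, exact permutation p 0.147). Without heroin rat 6 it was 0.48 with a limma p of 0.00116, and its fold of 1.397 was again just under the threshold of 1.4. The SD of the 10 spots of that rat was 0.14, the highest of the 11 arrays, and its highest spot stood at 1.21 on the log2 scale, below the mean of every other rat. Under quantile normalization the change of Mapk3 was 0.12 (limma p 0.506).

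Elk1, the nuclear factor that ERK phosphorylates, is the name of a pair of dim probes. They lie on opposite strands, so they cannot both match the Elk1 RNA. The array files list the brighter probe under a predicted transcript. The dimmer is listed only under an expressed sequence tag, a single read of a cDNA, so it is not taken as a further reading of Elk1. The match of either sequence to the Elk1 RNA was not tested. The brighter Elk1 probe had 0.61 to 0.97 array medians in heroin rats with a median of 0.71. Saline rats 2 to 6 had 1.27, 0.94, 0.70, 0.56 and 1.05. Saline rat 2 was the highest and saline rat 5 the lowest of all rats, so the saline group spanned the heroin group. The log2 change was -0.19 ± 0.20 (SE) with an interval from -0.62 to 0.24 (limma p 0.362, exact permutation p 0.403). It was -0.18 without heroin rat 6 (limma p 0.413) and -0.18 under quantile normalization.

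The signal of this probe was on average 3.17 times the lowest signal well above background on the same array, against 7.33 times or more for the other probes tested. The dimmer Elk1 probe was well above background on 5 of 6 heroin and all 5 saline arrays and was left out of the test. It had 0.22 to 0.47 array medians in heroin rats, and saline rats 2 to 6 had 0.50, 1.01, 0.36, 0.39 and 0.42. Saline rat 3 was the highest, and the groups overlapped. The 2 Elk1 probes did not rank the saline rats alike: saline rat 3 was the highest on the one and in the middle on the other.

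**Figure D2:**
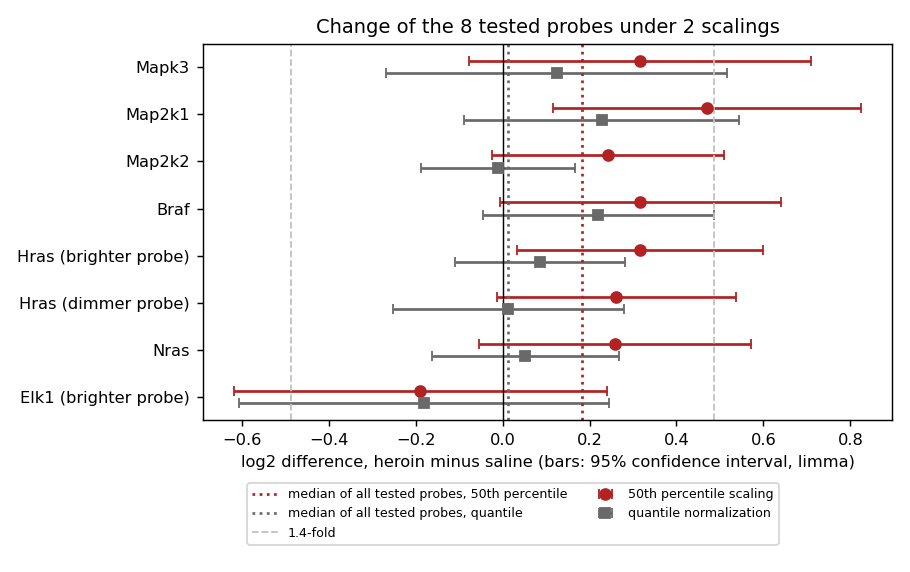
Log2 difference (heroin minus saline) of each probe tested with its 95% confidence interval from limma, after scaling by the array median (red circles) and after quantile normalization (grey squares). Dotted lines are the medians of all probes tested, 0.18 and 0.01, and dashed lines are 1.4-fold. The 7 probes of Ras, Raf, MEK and ERK genes lie between 0.24 and 0.47 in red and between -0.01 and 0.23 in grey, and all 8 grey intervals include 0.

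Arrays with the same replicate number, 2 to 6, shared a scan, and within these 5 pairs the heroin rat was higher in 4 for each of the 7 probes of Ras, Raf, MEK and ERK genes and in 1 for the brighter Elk1 probe. Under quantile normalization it was higher in 4 for Mapk3, Map2k1, the brighter Hras probe and Nras, in 3 for Braf and the dimmer Hras probe, in 1 for Map2k2 and in 2 for Elk1. Of all probes tested, 78.7% had a higher mean in heroin rats with the first scaling and 53.2% under quantile normalization. Counts by pair were not made over all probes, and the counts given here share the same 5 pairs. With the pair as a replicate block, the log2 change of Map2k1 was 0.44 (limma p 0.0322), and 10.6% of all probes had a p under 0.05. The changes of the other 6 were between 0.24 and 0.31, with limma p-values from 0.110 to 0.196.

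Differences between paralogs within a rat do not move with scaling by a percentile. Map2k1 minus Map2k2 was 0.998 ± 0.262 on the log2 scale in heroin rats (SD, n = 6) and 0.771 ± 0.325 in saline rats (SD, n = 5). Heroin rat 6, at 0.50, lay with saline rats 2, 3 and 4, and saline rats 5 and 6 lay with the other heroin rats. The group difference of 0.23 had an exact permutation p of 0.227. Leaving out single rats gave 0.16 to 0.34.

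Hras minus Nras was 5.80 ± 0.32 (SD, n = 6) and 5.74 ± 0.12 (SD, n = 5), with an exact permutation p of 0.777 for the difference of 0.06. Without heroin rat 6 the difference was -0.06. Each of these differences was read by 2 probes with different response, so their levels do not compare the amounts of the RNAs. These 2 pairs were compared, and neither exact p passed before adjustment.

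**Figure D3:**
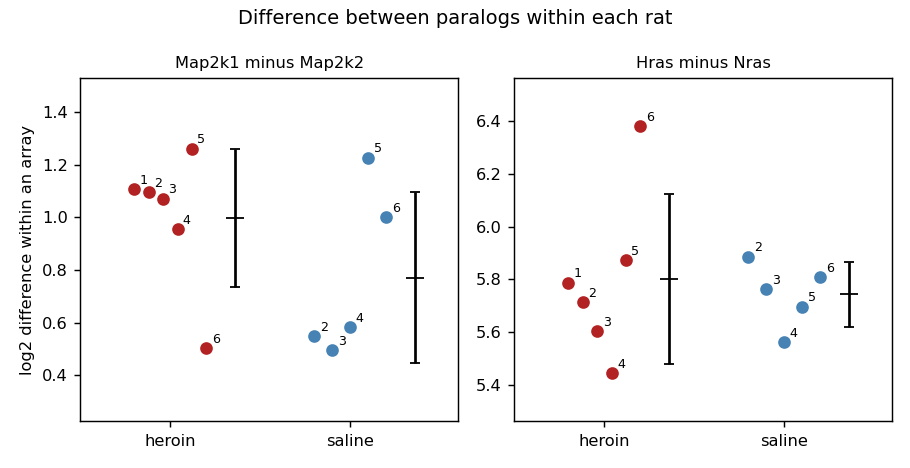
Log2 difference between 2 genes within the same array (vertical axes, equal span) for the MEK and Ras pairs, in heroin rats (red) and saline rats (blue). Points are rats with their replicate number, and the black mark and bar are the mean ± SD. Heroin rat 6 is the lowest heroin rat for Map2k1 minus Map2k2 and the highest for Hras minus Nras.

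Araf, a Raf kinase with low activity toward MEK, had 9.0 ± 0.94 array medians in heroin rats (SD, n = 6) and 7.42 ± 0.80 in saline rats (SD, n = 5) on its brightest probe. The log2 change was 0.28 (limma p 0.0390) and did not reach the fold threshold, and its other probe gave 0.12. Under quantile normalization the changes of these probes were 0.05 and 0.15.

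The wider ERK pathway was described through a list of 62 other genes, of which 56 were on the array and 47 were tested. Of the 47, 40 were higher and 7 lower in heroin rats, beside 78.7% of all probes higher. None passed the thresholds by limma or by the methods' t-test. An unadjusted p under 0.05 was found for 10 by each test, beside 18.5% of all probes by limma and 16.1% by the methods' t-test. The median log2 change of the 47, 0.19, was close to the 0.18 of all probes tested. Under quantile normalization it was -0.02 with 23 higher and 24 lower, beside 53.2% of all probes higher. The list as a whole thus lay at the level of all probes.

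The gene with the smallest p in a role is named here by rule, and none passed the thresholds. Upstream of Ras, the adaptor Grb2 had a log2 change of 0.27 (limma p 0.0753) and the exchange factor Sos2, which loads Ras with GTP, had 0.47 (limma p 0.0114). Of the GTPase-activating proteins, which switch Ras off, Rasa3 had 0.23 (limma p 0.0897), and of the other small GTPases of the family the neuronal Rit2 had 0.33 (limma p 0.0147). The other tested probes of these genes gave 0.21 for Grb2, 0.09 for Sos2 (quantile -0.11), -0.08 for Rasa3 (quantile -0.28) and 0.36 for Rit2. The brighter Sos2 probe was just under 1.4-fold and passed both thresholds when any 1 of 6 rats (heroin 1, 2, 4 or 5, saline 4 or 5) was left out, with changes between 0.50 and 0.52, in settings where between 2.48% and 9.2% of all probes passed.

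At the level of the kinases, Pea15, which holds ERK in the cytoplasm, had 0.44 (limma p 0.0139) and passed without heroin rat 2 (0.50) or saline rat 5 (0.55), where 3.84% and 9.2% of all probes did. Of the inhibitors, Spry2 had 0.28 (limma p 0.0914), and the tyrosine phosphatase Ptprr, which acts on ERK, had 0.39 (limma p 0.0115). Downstream, the nuclear kinase Rps6ka5 had 0.31 (limma p 0.0763), and Mkl1, a coactivator of serum response factor, had 0.31 (limma p 0.0317). The other tested probes gave 0.06 for Ptprr (quantile -0.13), 0.08 for Rps6ka5 and 0.10 for Mkl1 (quantile 0.15).

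Under quantile normalization the changes of the brightest probes of these genes were between -0.02 (Rasa3) and 0.22 (Sos2), and none had a p under 0.05. Under that scaling 1 of the 47 genes of the list had a limma p under 0.05, beside 7.71% of all probes. It was the adaptor Gab2, at -0.32 (limma p 0.00548), a gene named after its value was seen.

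**Figure D4:**
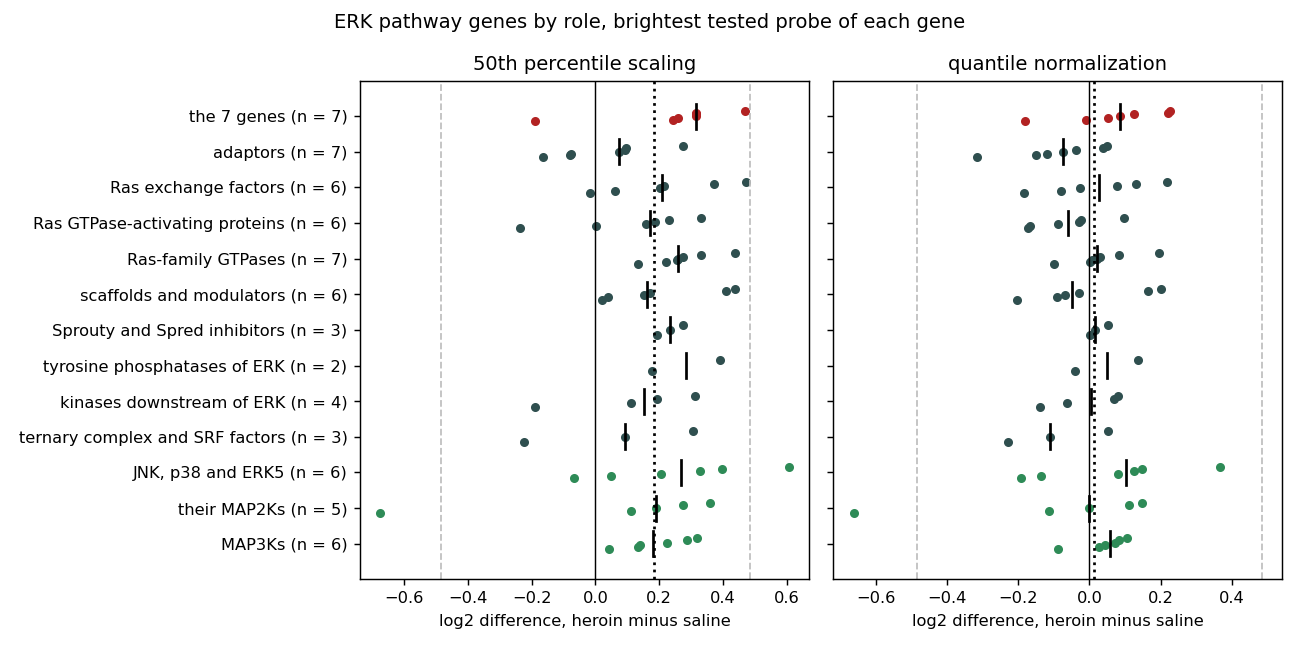
Log2 difference (heroin minus saline, horizontal axes) of the brightest tested probe of each gene, by role, after scaling by the array median (left) and after quantile normalization (right). Red points are the 7 genes of the ERK cascade, dark grey points the wider pathway without Raf kinases and ERKs, and green points the parallel cascades; black ticks are medians of a role, dotted lines medians of all probes tested and dashed lines 1.4-fold. Only Mapk8 (0.61) and Map2k7 (-0.67) lie beyond the dashed lines on the left, and only Map2k7 does on the right.

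The parallel cascades of JNK, p38 and ERK5 use the same 3-tier plan, and 17 of 20 genes listed for them were tested. Of these, 15 were higher and 2 lower, beside 78.7% of all probes higher, with a median of 0.21. Under quantile normalization 11 were higher and 6 lower, beside 53.2% of all probes higher, with a median of 0.07. Mapk8, which encodes JNK1, rose from 7.25 ± 1.22 array medians in saline rats (SD, n = 5) to 11.5 ± 4.42 in heroin rats (SD, n = 6), a log2 change of 0.61 (limma p 0.00924). Heroin rat 6 was the highest of all rats for it. The other 2 Mapk8 probes gave 0.05 and -0.000547, and the change was 0.43 without heroin rat 6 and 0.37 under quantile normalization (limma p 0.0893), where it no longer passed.

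Map2k7, which encodes the kinase MKK7 that activates JNK, fell by 0.67 on the log2 scale (limma p 0.00591), from 0.99 ± 0.31 to 0.60 ± 0.09 array medians (SD, n = 5 and n = 6). It fell by 0.66 under quantile normalization (limma p 0.00907), where 0.935% of all probes passed as lower. Without saline rat 4 it fell by 0.56 and had a limma p of 0.0208. Neither gene passed an adjusted p, at 0.263 for both, and the methods' t-test called neither. Beside this, 1.79% of all probes passed as higher and 0.927% as lower. The Map2k7 probe was dim, with a mean log2 signal of -0.45, below the -0.31 of the brighter Elk1 probe. Its groups overlapped: saline rat 5, at -0.95, lay below every heroin rat but rat 5, at -1.17.

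The profile of the 7 genes over the 11 rats, taken as the mean of their centred log2 signals, stood between 0.05 and 0.18 for heroin rats 1 to 5 and at -0.05 for heroin rat 6. Saline rat 5 stood at 0.01 and the other 4 saline rats between -0.25 and -0.06. Heroin rat 6 and saline rat 5 were thus the rats of each group nearest the other. Among 8395 named genes, the genes with the least root mean square difference from this profile over the 11 rats were Copg at 0.044, Sdhb at 0.049 and Ebna1bp2 at 0.053. Copg, a subunit of the coatomer of vesicles, had a log2 change of 0.26, Sdhb, a subunit of succinate dehydrogenase, had 0.22, and Ebna1bp2, a nucleolar protein, had 0.21. None passed the thresholds, and the 3 changes were between -0.03 and 0.02 under quantile normalization.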

How the data were processed

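Total RNA of the medial prefrontal cortex of 11 rats was labelled with Cy3 by the authors and hybridised to 1-colour Agilent 4x44 rat arrays. The authors deposited spot intensities from Feature Extraction (version 9.5.1.1 in the headers), which subtracts background and removes spatial trends within an array and leaves arrays unscaled, and a table of relative values, a ratio around 1 made by dividing by array and gene medians, which served as an alternative. Non-uniform and outlying spots were dropped, a floor of 5 was set, signals were put on the log2 scale and averaged per probe, and the 50th percentile of the 41012 non-control probes served to scale each array. Probes detected on all 11 arrays (at least 0.5 of their spots well above background) and usable on at least 2 arrays of each group were tested, 25555 in all. Limma (3.58.1, R 4.3.3; lmFit and eBayes, two-sided, Benjamini-Hochberg adjustment) compared the groups. The exact permutation test, two-sided, used all 462 divisions of the rats, and its smallest p is 0.00216. The fit was tested on simulated data. Alternatives were the 75th percentile, quantile normalization, normexp (offset 50), scaling before the floor, the deposited ratios, keeping marked spots, 2 other detection filters, the methods' t-test, a block for replicate number or for scan, limma with array weights or with trend and robust options, the mean of a gene's probes, and leaving out each rat.

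Groups and replicate numbers came from the sample labels. The files' headers show that arrays numbered 2 to 6 shared a scan between groups and heroin rat 1 was scanned alone. Whether same-numbered rats were yoked to each other is not given in the sources used here. Their deviations correlated at 0.38, -0.13, 0.35, 0.02 and -0.24. A gene's value is that of its brightest tested probe. The genes named are the 7 genes, Araf, list genes past the thresholds, the smallest p in each role, and the 3 named genes nearest the mean profile. Some genes of the lists are not reported here by name. The genes and lists were chosen with earlier results of these data known. The number of arrays limits the precision.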

Additional observations from a re-analysis of the deposited data

Results flagged for a closer look

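In 20 groups of rats examined for the tested probes and the paralog differences, 2 had a rat far from the others, by a rule that takes about 1 in 20 groups by chance where values are normally distributed. The groups share the same rats. Both were heroin rat 6, for Mapk3 and for Map2k1. Its log2 signal of Mapk3 was 1.03, where the other 5 heroin rats lay between 1.90 and 2.11. Its log2 signal of Map2k1 was 6.44, where the others lay between 6.74 and 6.87. Some heroin rat stood this far from the others for 13.6% of 25332 probes.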

How the results depend on the processing

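The median log2 change over the 8 probes, 0.29, was 0.0712 with the 75th percentile, 0.0692 under quantile normalization, 0.0659 when heroin rat 6 was also left out and 0.063 when the replicate block was added (the last 2 chosen after seeing the data), and 0.24 to 0.34 with each rat left out. The number of the 8 probes past the thresholds, 0, was 2 with array weights (Mapk3 0.55 and Map2k1 0.68, where 9.74% of all probes passed) and 0 to 1 with each rat left out, the 1 being Map2k1 without heroin rat 6 or saline rat 5. Pathway genes past the thresholds, 0, were 4 with array weights (Rasa1, Rap1b, Pea15 and Cnksr2), 1 with the replicate block (Sos2, 0.50, where 3.15% of all probes passed) and 0 to 4 of 47 with a rat left out (4 without saline rat 5, namely Sos2, Rap1b, Pea15 and Cnksr2, where 9.2% of all probes passed). Of the parallel genes, 2 passed, but 1 with the 75th percentile, quantile normalization, either addition to it, normexp or the mean of a gene's probes, 0 with the methods' t-test and 0 to 2 with a rat left out (0 without saline rat 4; Mapk8 was lost without heroin rat 6 or saline rat 2, 3, 4 or 6). Map2k2 turned to -0.0104 under quantile normalization, -0.0317 without heroin rat 6 as well and -0.00854 with the replicate block as well, and the dimmer Hras probe to -0.041 under quantile normalization without heroin rat 6. In that last setting Mapk3 had 0.283, Map2k1 0.313, Braf 0.281, the brighter Hras probe 0.0434, Nras 0.0884 and Elk1 -0.168, and no probe of the 8 passed the thresholds. Hras minus Nras was between -0.0585 (without heroin rat 6) and 0.129 with single rats left out. The replicate block ended no call of the 8 probes, of which none was called. For single probes, 199 of 207 alternative values kept direction and side of the threshold. As no probe had passed, few could change side, and the count does not measure size. Map2k2 at 0.0245 with the 75th percentile and the dimmer Hras probe at 0.013 under quantile normalization count as kept. The relative values gave no value for the dimmer Hras probe, and the causes of these shifts were not tested. Elk1, at 3.17 times the lowest detected signal, was the dimmest of the 8 probes. Over all probes, 457 passed as higher and 237 as lower, against 218 and 239 under quantile normalization, 33 and 746 with the 75th percentile and 122 and 4 with normexp. Rasa1, Rap1b and Cnksr2 are named for calls seen in the data.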
